A study of Mus musculus with 10 samples.

Results

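Genes that carry a hormone or transmitter signal from G protein-coupled receptors to cyclic AMP and its kinase were followed across 5 mouse tissues. They were taken as probe sets whose platform annotation gives a single gene symbol of the G protein alpha, beta or gamma subunits, the adenylyl cyclases (with the peptide gene Adcyap1 and its receptor gene Adcyap1r1, which share the prefix), the subunits of protein kinase A, the A-kinase anchoring proteins, the Pde genes, the RGS proteins, the G protein-coupled receptor kinases, the beta-arrestins or the numbered CREB genes. The rule used names only and no measured value. It found 53 of the 6137 genes named by a single symbol. They are read by 76 of 13057 probe sets, 52 on chip A and 24 on chip B. The receptor kinases had no probe set under this rule, and a probe set that names Gng5 together with a pseudogene was left out because it has more than 1 symbol.

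The RNA came from the hypothalamus, liver, muscle, pancreas and white adipose tissue of female C57BL/6 adults, untreated as far as the labels say, and each tissue was read once on chip A and once on chip B of an Affymetrix one-colour design, which makes 10 arrays. The labels give no age in weeks and do not say how many mice gave each RNA. The adipose arrays are titled as preconfluent but their source is given as white adipose tissue; all 5 adipocyte markers on the chips were called for them, so they are named adipose here. All 5 acinar markers were called for pancreas, all 5 muscle markers for muscle, all 5 liver markers for liver, and the hormone genes Avp and Oxt for hypothalamus, the 2 of 5 listed that the chips carry. With a single array per tissue and chip, no comparison below has a test or a spread between mice, and the number of arrays limits how precise the values are. Values are linear intensities, which can fall below 0 after the authors' subtraction. The noise bound of an array is the size of its 1st percentile. On chip A it was 258 in hypothalamus, 295 in liver, 390.1 in adipose, 1065 in muscle and 1166 in pancreas. On chip B it was 649.5 in hypothalamus, 792 in liver, 918 in adipose, 1639.5 in muscle and 2608 in pancreas. A value above the bound of its own array is called measured. Each of the other 4 tissues was taken at its value or, where that is lower, at its noise bound. A probe set was called for a tissue that exceeded the highest of these 2-fold or more, and a fold set by a bound is given as "at least". Because the tissues are mixtures, fewer cells of a type and less RNA per cell cannot be told apart.

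In this pathway an activated receptor makes the alpha subunit of a G protein exchange GDP for GTP and part from its beta and gamma subunits. Gs alpha, encoded by Gnas, switches adenylyl cyclase on, and the Gi and Go alphas hold it back or act through the released beta and gamma subunits. Cyclic AMP frees the catalytic subunits of protein kinase A from their regulatory subunits, anchoring proteins hold the kinase in place, phosphodiesterases destroy cyclic AMP, RGS proteins speed the return of the alpha subunit to its resting state, and CREB carries the signal to genes. In liver the pathway serves glucagon, in fat and muscle adrenaline, in the exocrine pancreas secretin, and in the brain many transmitters and peptides.

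For 6 genes a single tissue was called, and their upstream sequences are shown because every later comparison comes back to them. Each sequence is the 250 bases before an annotated start in the RefSeq promoter table of GRCm38.p6, 5′ to 3′ on the gene's strand, with every TGACG or its reverse complement CGTCA in capitals. That core makes up the cyclic AMP response element TGACGTCA, the site that CREB binds, which holds both cores in overlap. Where the table lists several starts, the window with the most cores was taken, and the first listed where none has a core. The Prkar1a window lies at chr11:109650699-109650948 on the forward strand, the Prkar1b window at chr5:139150002-139150251, the Gng3 window at chr19:8839247-8839496 and the Gnb2 window at chr5:137533307-137533556, these 3 on the reverse strand. The Gnas window lies at chr2:174327499-174327748 on the forward strand and the Pde4dip window at chr3:97768015-97768264 on the reverse strand.
Prkar1a: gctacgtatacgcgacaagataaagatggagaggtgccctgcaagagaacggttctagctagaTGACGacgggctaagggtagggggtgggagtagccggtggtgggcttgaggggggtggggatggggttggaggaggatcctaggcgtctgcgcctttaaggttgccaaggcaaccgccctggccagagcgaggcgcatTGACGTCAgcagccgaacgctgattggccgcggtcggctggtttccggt
Prkar1b: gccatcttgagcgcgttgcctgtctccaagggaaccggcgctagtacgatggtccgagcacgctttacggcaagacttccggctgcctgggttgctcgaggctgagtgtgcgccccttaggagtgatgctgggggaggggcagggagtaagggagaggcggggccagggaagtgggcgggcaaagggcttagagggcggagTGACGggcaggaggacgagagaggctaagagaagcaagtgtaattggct
Gng3: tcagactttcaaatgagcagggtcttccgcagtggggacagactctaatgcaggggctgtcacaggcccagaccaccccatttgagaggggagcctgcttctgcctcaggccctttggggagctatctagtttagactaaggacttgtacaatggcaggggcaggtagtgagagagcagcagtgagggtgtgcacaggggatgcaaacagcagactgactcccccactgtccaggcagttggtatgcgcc
Gnb2: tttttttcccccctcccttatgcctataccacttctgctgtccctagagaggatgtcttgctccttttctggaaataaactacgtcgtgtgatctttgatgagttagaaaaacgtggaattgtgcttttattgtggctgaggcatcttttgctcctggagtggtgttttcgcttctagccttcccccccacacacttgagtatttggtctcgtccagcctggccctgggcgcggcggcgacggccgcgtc
Gnas: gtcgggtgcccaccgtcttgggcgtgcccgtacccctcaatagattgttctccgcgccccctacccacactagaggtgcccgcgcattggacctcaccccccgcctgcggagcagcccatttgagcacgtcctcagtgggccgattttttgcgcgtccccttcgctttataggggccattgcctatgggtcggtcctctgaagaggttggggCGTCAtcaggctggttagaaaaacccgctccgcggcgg
Pde4dip: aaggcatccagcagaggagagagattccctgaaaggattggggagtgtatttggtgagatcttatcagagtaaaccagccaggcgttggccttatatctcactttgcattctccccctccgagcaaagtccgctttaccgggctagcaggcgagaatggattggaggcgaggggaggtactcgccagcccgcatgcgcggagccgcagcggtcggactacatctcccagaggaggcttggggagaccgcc
The Prkar1a window held the complete TGACGTCA, beginning 49 bases before the start, and a further core beginning 187 bases before it. It was 1 of 6 starts listed for Prkar1a, 3 of which had a core, and the arrays do not tell which start was in use. Of the 4 starts of Gnas 3 had a core, of the 5 of Prkar1b 1, and the starts of Gng3, Gnb2 and Pde4dip (1, 1 and 2) had none. The complete site was found in 1 of 72 windows (1.39%) of the 41 members that the table lists, against 508 of all 32851 windows (1.55%). A core was found in 17 of the 72 (23.6%), against 17.8% of all windows. A match describes these letters and is not a measured site.

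Across the 76 member probe sets, 7 (9.21%) were called for some tissue, where 8.52% of all probe sets were, and the hypothalamus had the most measured and the most called. There, 32 were measured (42.1%), where 31.0% of all probe sets were, and 4 were called (5.26%), where 1.35% of all were. Muscle followed with 3 called (3.95%), where 1.68% of all were. These are 2 genes, Gnas by 2 probe sets and Pde4dip. In muscle 11 were measured (14.5%), close to the 13.9% of all probe sets. No member was called for pancreas, liver or adipose, where 2.66%, 2.03% and 0.812% of all probe sets were called. Members measured numbered 10 in pancreas (13.2%), 15 in liver (19.7%) and 20 in adipose (26.3%), where all probe sets gave 11.9%, 25.7% and 24.8%. In liver alone the share was smaller among members than among all probe sets. The median member in liver lay at -0.37 on the log2 scale, relative to the mean of the other 4 tissues, where the median of all probe sets was -0.10. With quantile normalization these medians were -0.21 and 0.00, and with a floor at the 75th percentile both were 0.00. In the other 4 tissues the median member lay between -0.06 and 0.00. The hypothalamus arrays have the lowest noise bounds, and the part of this in the member counts was not tested. With the highest bound of the chip on every array, 16 members were measured in hypothalamus. The share of all probe sets was not computed for that setting.

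**Figure D1:**
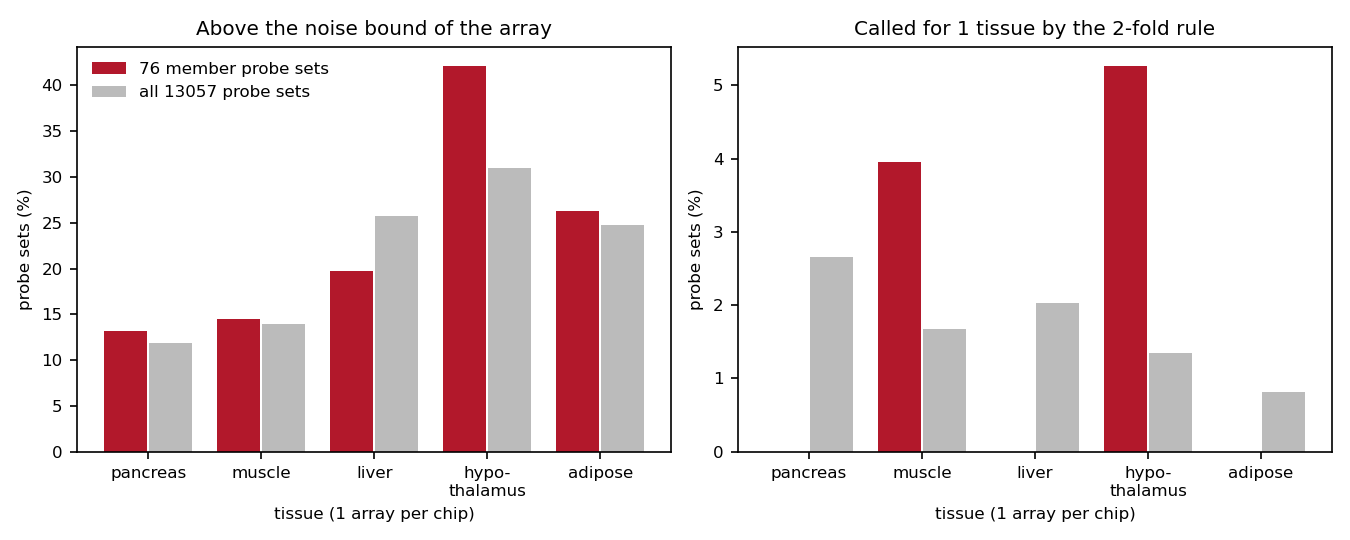
Percent of the 76 member probe sets (red, left bar) and of all 13057 probe sets (grey, right bar) per tissue, measured above the noise bound of the array (left panel) and called by the 2-fold rule (right panel). Hypothalamus has 42.1% of members measured where all probe sets give 31.0%, and 5.26% called where all give 1.35%.

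In at least 1 tissue, 39 member probe sets (51.3%) were measured, where 42.8% of all were. The other 37 (48.7%) were measured in none, where 57.2% of all were not. By gene, 30 were measured in at least 1 tissue by their brightest probe set and 23 in none. Gnas, Gng11, Prkaca and Prkar1a were measured in all 5 tissues, by 6 probe sets (7.89%), where 5.86% of all were. A further 2 genes were measured in 4 tissues, 5 in 3, 7 in 2 and 12 in 1. Neuron markers moved with the hypothalamus values. All 5 of the list (Gad1, Snap25, Stmn3, Syp and Thy1) were measured there, and in each other tissue Stmn3 alone was. Their summed intensity, over both chips and leaving out negative values, was 47198 in hypothalamus, against 885 to 3572 in the other tissues. The oligodendrocyte markers on the chips (3 of 4 listed) were all above noise in hypothalamus and in no other tissue. Their sum, made in the same way, was 8760.0 against 178.5 to 907. Mobp gave most of that sum, at 7340, while Mbp read 708 in hypothalamus and 782 in muscle, there under its bound. Of 3 astrocyte markers, S100b (1934) and Gfap (693) were above noise in hypothalamus and none was elsewhere. Gfap read higher in pancreas, at 1439 under its bound, and Aqp4 was below noise in every tissue. None of 6 pituitary markers was measured in hypothalamus. The part that the share of neurons or glia has in the results was not tested.

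**Figure D2:**
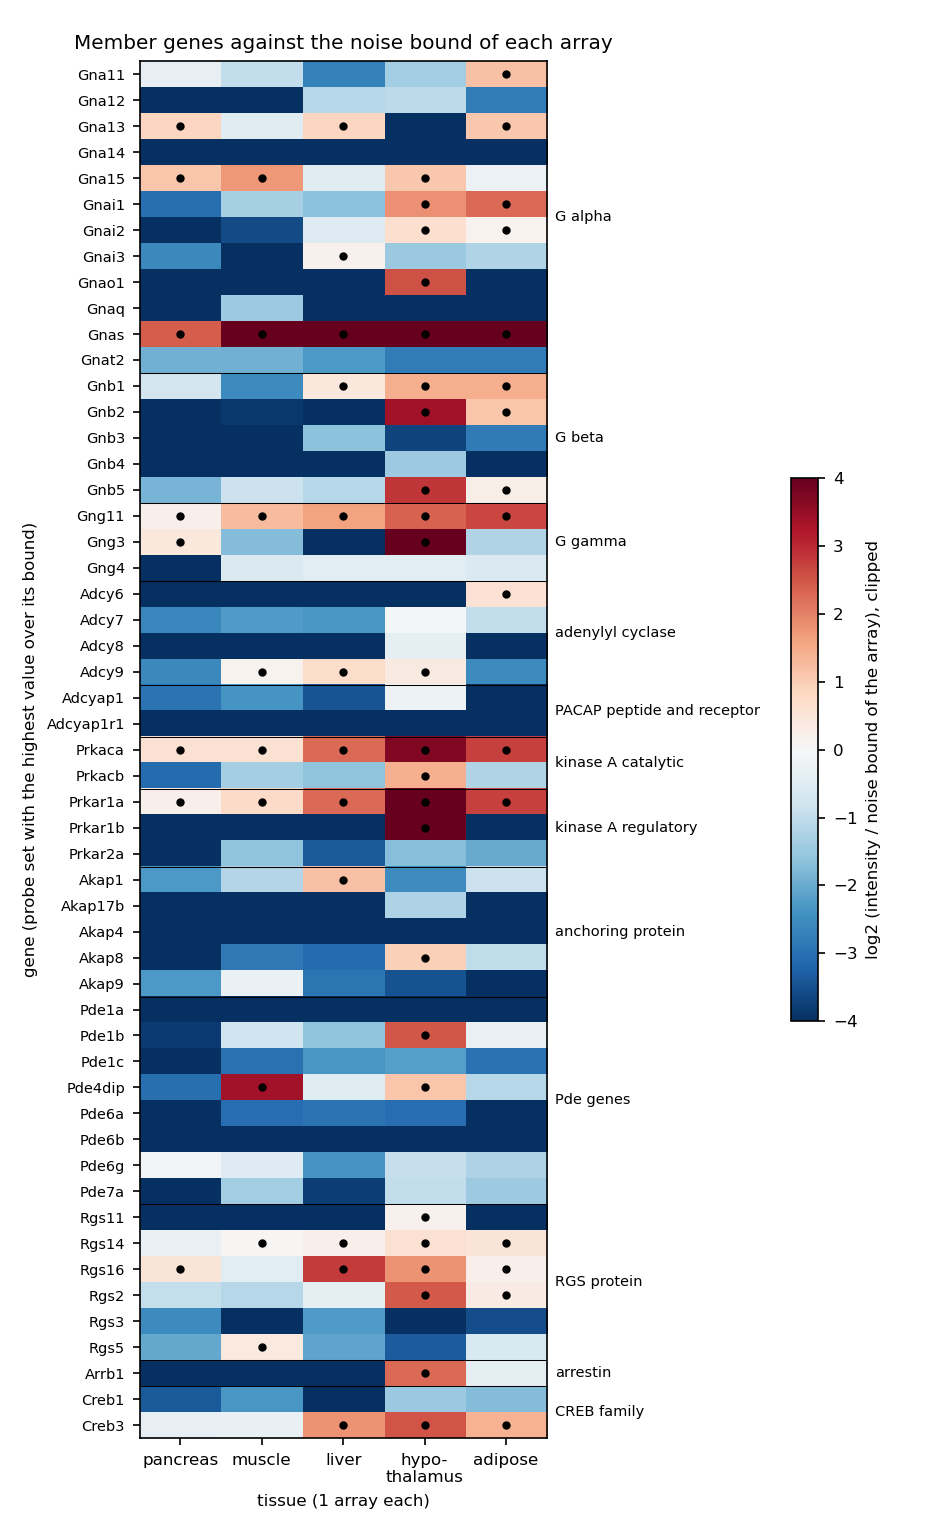
Each row is a member gene, read by the probe set with the highest value over its bound, and each column a tissue. Colour gives log2 of intensity over the noise bound of the array, values under 1/16 or over 16 times the bound are drawn at those limits, and a black dot marks a value above the bound. Rows are in the order of roles, and 4 rows (Gnas, Gng11, Prkaca and Prkar1a) have a dot in every tissue.

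Among the G protein alpha subunits, Gnas was the gene with signal everywhere and was brightest in muscle. Its probe set with the highest value over noise read 27422 in muscle, against 12157 in adipose, 9937 in hypothalamus, 6198.5 in pancreas and 5399.8 in liver. The second probe set on chip A read 25179.8 in muscle, against 10131 in pancreas, 6849.7 in adipose, 5014 in hypothalamus and 4495 in liver. The chip B probe set read 31169.6 in muscle, against 17394.5 in adipose, 11991 in pancreas, 11429 in hypothalamus and 8577 in liver. All 3 put muscle first and liver last, and they differ in the order of the tissues between. Muscle stood 2.26-fold and 2.49-fold above the next tissue by the chip A probe sets, which were called, and 1.79-fold by that of chip B, which was not. The first of these folds was 1.92 with arrays scaled by their 75th percentile and 1.10 with quantile normalization, so its call ended under both. All 3 are of family design, meaning that they may bind related messages, and without such probe sets Gnas has no value. The locus also gives other transcripts from starts further upstream, and these probe sets are not known to separate them.

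Gnao1 encodes Go alpha, the abundant alpha subunit of neurons, and was measured in hypothalamus alone. Its brighter chip B probe set read 3827 in hypothalamus, against -425 in liver, -796 in adipose, -1109 in pancreas and -1526 in muscle, which is at least 1.47-fold. The other chip B probe set read 1079.9 in hypothalamus and at most 141 elsewhere, and both chip A probe sets were below noise in every tissue. Go alpha was not called across 5 tissues, because the pancreas bound of 2608 sets the fold.

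Gnai1 and Gnai2 encode inhibitory Gi alphas, and Gnai1 was highest in adipose. Gnai1 read 1892 in adipose and 915 in hypothalamus, both above noise, against 422 in muscle, 145.1 in pancreas and 94.8 in liver. Adipose was thus 2.07-fold above hypothalamus, and at least 1.62-fold above the highest bound. The chip B probe set of Gnai1 was below noise throughout, with its highest value also in adipose (380 with a bound of 918). Gnai2 read 426 in adipose and 413 in hypothalamus on chip A, both above noise. On chip B Gnai2 read 694 in adipose, under the bound of 918, and 670.0 in hypothalamus, just above its bound. These 2 tissues thus differed little by either probe set, and both probe sets are of family design. Gnai3, another Gi alpha, passed its bound in liver alone, at 330.3.

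Gna15, Gna13 and Gna11 belong to the Gq and G12/13 classes, which do not act through adenylyl cyclase. Gna15 was shared by muscle and pancreas: it read 3519.7 in muscle and 2521 in pancreas, against 543 in hypothalamus, 329.6 in adipose and 211.5 in liver. The lower of these 2 tissues was 4.64-fold above the highest of the other 3, which made Gna15 the 1 of 76 member probe sets (1.32%) called for this pair of tissues, where 1.06% of all were. Its other probe set read 231.5 in muscle and 371 in pancreas, below both bounds. Gna13 read 2096.5 in pancreas, 828 in adipose and 541 in liver, all above noise, against 769.7 in muscle and 8.0 in hypothalamus, both below it. Its fold for pancreas, at least 1.97, lay just under the rule. Gna11 was measured in adipose alone, at 885, and its 927 in pancreas was under that array's bound. Gna12, Gna14, Gnaq and the cone transducin gene Gnat2 were below noise in all 5 tissues, with the highest of their values, 387, in muscle for Gnaq.

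**Figure D3:**
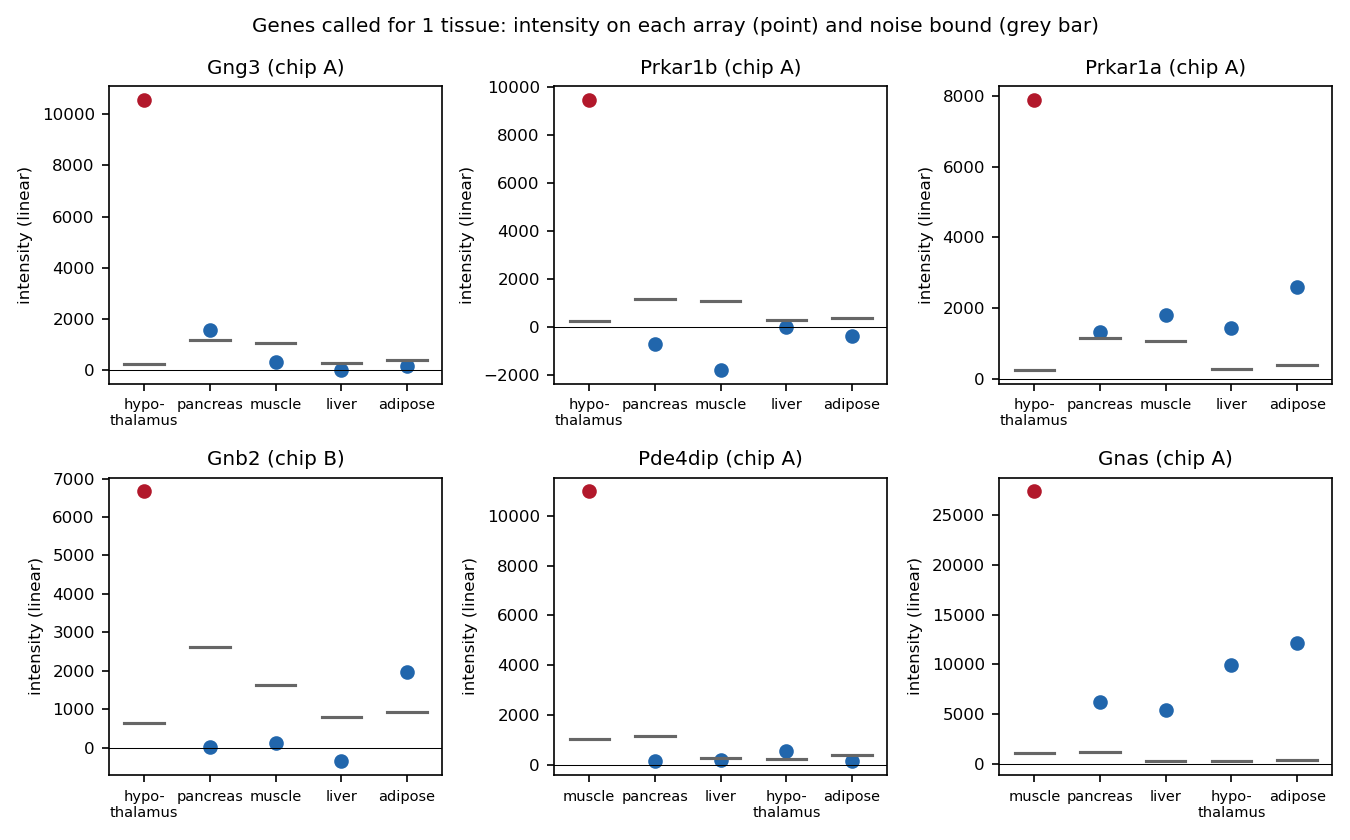
Linear intensity (points) of the 6 genes called for a tissue, with the called tissue in red at the left of each panel and the other 4 in blue, and the noise bound of each array as a grey bar. Gng3, Prkar1b, Prkar1a and Gnb2 stand highest in hypothalamus and Pde4dip and Gnas in muscle; each point is 1 array.

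Of the G beta subunits, Gnb2 was called for hypothalamus. Gnb2 read 6677 in hypothalamus and 1964 in adipose, against 112.4 in muscle, 14.0 in pancreas and -364 in liver. The value in hypothalamus was 3.40-fold above adipose and at least 2.56-fold above the pancreas bound, and this probe set too is of family design. Gnb5, a beta subunit that pairs with RGS proteins in neurons, read 1889 in hypothalamus and 460.2 in adipose, against 587 in muscle, 323 in pancreas and 133 in liver, all below noise. Its fold in hypothalamus was at least 1.62. Gnb1 showed another order, with 1067 in adipose, 711 in hypothalamus and 392 in liver on chip A, and 1615 in adipose and 1501 in hypothalamus on chip B. In muscle Gnb1 was below noise by both probe sets, at 181 and -47.2. Gnb3 and Gnb4 were below noise in every tissue, at most at 0.37 of the bound.

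The G gamma subunits Gng3 and Gng11 had different patterns. Gng3, a gamma subunit of neurons, read 10564 in hypothalamus, against 1556 in pancreas, 319 in muscle, 168 in adipose and 14.0 in liver. It was 6.79-fold above pancreas, the only other tissue where it was measured, and at least 27.1-fold above adipose and 35.8-fold above liver. Gng11, a widely expressed gamma subunit, had signal in all 5 tissues instead. Its bright probe set read 2538.5 in muscle and 2500.0 in adipose, against 1339 in pancreas, 1331 in hypothalamus and 902 in liver. Muscle and adipose differed by 1.02-fold, and the highest tissue stood 2.81-fold above the lowest. The other chip A probe set of Gng11 was measured in adipose (888) and hypothalamus (509), with muscle at 710.5 below its bound, and the chip B probe set was below noise throughout. Gng4 was not measured in any tissue, with its highest value, 1100.3, in muscle under a bound of 1639.5.

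Adenylyl cyclases were at the edge of what the arrays could measure. Adcy9 read 1185 in muscle, 488 in liver and 329 in hypothalamus, each above its bound, against 193 in pancreas and 66.3 in adipose, and its second probe set was below noise everywhere. Muscle was 2.43-fold above liver, but at least 1.02-fold above the pancreas bound. Adcy6 was measured in adipose alone, at 578 with a bound of 390.1, while muscle read -2315. Both probe sets of Adcy7 and that of Adcy8 were below noise in all 5 tissues, at most at 0.97 of the bound. Adcyap1, which encodes the peptide PACAP, a ligand that raises cyclic AMP, read 226 in hypothalamus with a bound of 258, and its receptor gene Adcyap1r1 was below 0 in every tissue. Neither can be called absent, since a signal under these bounds would not be seen.

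The subunits of protein kinase A held the other pair of genes called for hypothalamus, both regulatory subunits of type I. Prkar1b, the form known from the nervous system, read 9475 in hypothalamus, against 16.0 in liver, -366 in adipose, -712.5 in pancreas and -1789 in muscle. That is at least 8.12-fold above the highest of the other tissues' bounds and at least 24.3-fold above adipose. The chip B probe set of Prkar1b was also highest in hypothalamus, at 2749.5 against 887 in adipose, 652 in pancreas, 308 in muscle and 121 in liver, but at least 1.05-fold only, since the pancreas bound on that chip is high. Prkar1a, the widespread form, was measured everywhere and read 7894 in hypothalamus, against 2594 in adipose, 1802 in muscle, 1431 in liver and 1330.0 in pancreas. Hypothalamus was 3.04-fold above adipose, and this fold rests on values above noise in all 5 tissues. Prkar2a, a type II regulatory subunit, was below noise by both probe sets, at most at 0.33 of the bound.

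Of the catalytic subunits, Prkaca differed less between tissues than Prkar1a did. Prkaca read 3339.9 in hypothalamus and 2622.5 in adipose, against 1792 in pancreas, 1643 in muscle and 1429.8 in liver. The highest stood 1.27-fold above the next and 2.34-fold above the lowest, against 5.94-fold between the highest and lowest for Prkar1a. Prkacb was measured in hypothalamus alone, at 1741, and its 635.5 in muscle, 401 in adipose, 308 in pancreas and 262 in liver were under their bounds. The bound of 2608 in pancreas is above the value in hypothalamus, so no fold over all tissues can be given for Prkacb.

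Anchoring proteins were mostly not measured. Akap1, which places the kinase at the outer membrane of mitochondria, read 659.5 in liver, against 471 in muscle, 235 in pancreas, 216 in adipose and 44.8 in hypothalamus, and was above noise in liver alone. On chip B Akap1 was again highest in liver, at 627, but below that bound. Akap8, a nuclear anchoring protein, was above noise in hypothalamus by 2 of its 3 probe sets, at 495 and 326. Akap9, a large protein of the centrosome and Golgi, read 889 in muscle with a bound of 1065, and Akap4, known from sperm, and Akap17b were below noise in all 5 tissues.

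Under the Pde symbols, the gene called for muscle does not encode a phosphodiesterase. Pde4dip encodes myomegalin, a large scaffold that binds the phosphodiesterase PDE4D. It read 10986 in muscle, against 552 in hypothalamus, 212.5 in liver, 176 in adipose and 144.1 in pancreas. Muscle was 19.9-fold above hypothalamus, the only other tissue above noise, and at least 9.42-fold above the pancreas bound. All 5 skeletal muscle markers (Ckm, Acta1, Tnnt3, Mylpf and Atp2a1) were called for muscle. Their summed intensity, over both chips and leaving out negative values, was 498513 in muscle against 734 to 1630.5 in the other tissues. The part of these markers in the value of Pde4dip was not tested. Pde1b, a phosphodiesterase switched on by calcium and calmodulin that is known from the brain, was the single true enzyme of the group above noise anywhere. It read 1432 in hypothalamus, against 618 in muscle, 323.5 in adipose, 96.8 in liver and 82.1 in pancreas, which is at least 1.23-fold. Pde1b is also known to be abundant in striatum, a neighbouring brain region with 3 of its listed markers on the chips. Of these, Penk and Tac1 read 1918 and 1121 in hypothalamus, and Drd2 read 683 there and 2186.5 in muscle. Any part of striatum in the value of Pde1b was not tested. Pde1a, Pde1c, Pde7a and the photoreceptor genes Pde6a and Pde6b were below noise in every tissue. Pde6g, the inhibitory subunit of the photoreceptor enzyme, read 2438 in pancreas and 1136 in muscle, both below their bounds of 2608 and 1639.5.

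RGS proteins were spread over tissues rather than gathered in one. Rgs16 was highest in liver, where it read 2060.4, against 1653 in pancreas, 781 in muscle, 890.2 in hypothalamus and 448 in adipose. Liver was 1.25-fold above pancreas and 2.31-fold above hypothalamus. The chip B probe set of Rgs16 was above noise in liver alone, at 847. Rgs2, which acts on Gq alphas, read 1399 in hypothalamus and 489 in adipose, above noise, against 595 in pancreas, 482 in muscle and 229.5 in liver, below it. Rgs5, known from the pericytes of small vessels, was highest in muscle by both probe sets, at 1407 and 902, and the first of these was above the bound of 1065. Against it stood 282 in pancreas, 257 in adipose, 68.8 in liver and 25.9 in hypothalamus. Of 4 endothelial markers, 2 were measured in adipose, Kdr in liver as well, and none in muscle. Of 4 smooth muscle markers, Acta2 alone was measured in muscle, at 2872, where Cnn1, Myh11 and Tagln were below noise, and 3 were measured in adipose, with Acta2 at 6581. Their part in the values of Rgs5 was not tested. Rgs14 was above noise in 4 tissues, at 1090.4 in muscle, 559 in adipose, 396 in hypothalamus and 337 in liver, and its 963 in pancreas was under the bound. Rgs11 passed its bound in hypothalamus alone, at 290.4, and Rgs3 was not measured in any tissue.

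Arrb1 encodes beta-arrestin 1, which uncouples active receptors. It was measured in hypothalamus alone, at 1244, against 304.5 in adipose, -124 in liver, -192 in pancreas and -679.5 in muscle, which is at least 1.07-fold above the pancreas bound and at least 3.19-fold above adipose. In the CREB family, Creb1, the factor that protein kinase A phosphorylates, was below noise in all 5 tissues by both probe sets, with values from -22.1 to 330.3. Creb3, which encodes a membrane-bound factor of the endoplasmic reticulum, read 1487 in hypothalamus, 1026 in liver and 1021 in adipose, all above noise, against 926 in pancreas and 876 in muscle, under their bounds. Its fold of hypothalamus over liver was 1.45.

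Because the bounds of pancreas and muscle hide differences among the other tissues, liver, hypothalamus and adipose were also compared with each other, a comparison chosen after the values were seen. With the same 2-fold rule, 10 members (9 genes, 13.2%) were called for hypothalamus, where 4.69% of all probe sets were. They were Gng3, Prkar1b by both probe sets, Prkar1a, Gnb2, Gnb5 (4.10-fold), Gnao1 (at least 4.17-fold), Pde1b (at least 3.67-fold), Arrb1 (at least 3.19-fold) and Rgs2 (2.86-fold), the folds being over adipose. Adipose had 2 (2.63%), where 3.36% of all were called: Gna11, at 885 against a liver bound of 295, and Gnai1, 2.07-fold above hypothalamus. Liver had 1, Rgs16, where 3.61% of all were called.

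Between single tissues the counts ran as follows. Hypothalamus exceeded liver at 13 members (12 genes, 17.1%), where 8.38% of all probe sets did, and liver exceeded hypothalamus at 3 (Gna13, Akap1 and Rgs16), where 6.86% did. Adipose exceeded liver at 9 members (6 genes, 11.8%), where 5.9% of all did: Gnas and Gnb1 and Gng11 by 2 probe sets each, and Gna11, Gnai1 and Gnb2. Liver exceeded adipose at Rgs16 alone (2060.4 in liver against 448 in adipose), where 4.14% of all probe sets did. Hypothalamus exceeded adipose at 10 members, where 5.53% of all did, and adipose exceeded hypothalamus at 4 (Gnai1, Gna11, Gna13 and Adcy6), where 6.72% did. 

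Muscle exceeded liver at 9 members (7 genes, 11.8%), where 7.73% of all did, and liver exceeded muscle at none, where 3.82% did. Muscle exceeded hypothalamus at 8 members (6 genes, 10.5%), where 7.2% of all did, and adipose at 6 (5 genes, 7.89%), where 5.77% did. Gnas, Gna15, Adcy9, Pde4dip and Rgs5 were in all 3 of these sets. Hypothalamus exceeded muscle at 6 members (Gnao1, Gnb2, Gng3, Prkaca, Prkar1a and Prkar1b, 7.89%), where 3.12% of all did, and adipose exceeded muscle at none, where 2.92% did. For pancreas the member counts were small in each direction it led, so differences from the share of all rest on few probe sets. Pancreas exceeded liver at 4 members (5.26%), where 7.35% of all did, hypothalamus at 3 (3.95%), where 7.35% did, adipose at 4 (5.26%), where 6.63% did, and muscle at none, where 4.2% did. Gna13 and Gna15 were in the first 3 of these sets. The other way, hypothalamus exceeded pancreas at 4 members (5.26%), where 2.8% of all did, and muscle exceeded it at 4 (2 genes, Gnas and Pde4dip), where 2.96% did. Liver and adipose exceeded pancreas at none, where 3.29% and 2.6% of all did. These comparisons share arrays, so each is a description of the same 5 samples and not a repeat of the others.

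Probe sets of the same gene gave a check within the arrays. Of the 53 genes, 18 had several probe sets, 10 of them on both chips. Of their 23 other probe sets, 13 were highest in the same tissue as the brightest, and of the 9 above noise somewhere, 8 were. The exception was Gng11, whose 2 chip A probe sets put muscle and adipose first in turn. Among the 8, the chip B probe set of Gnai2 was highest in adipose at 694, under its bound. It was above noise in hypothalamus alone, at 670.0. For 15 probe sets that are no controls and that both chips carry, 3 or 4 per tissue were above noise on both chips, and the median size of their log2 difference between chips ran from 0.41 in hypothalamus and muscle to 0.95 in liver. Levels are therefore compared within a chip only, apart from the marker sums, which add values of both chips.

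**Figure D4:**
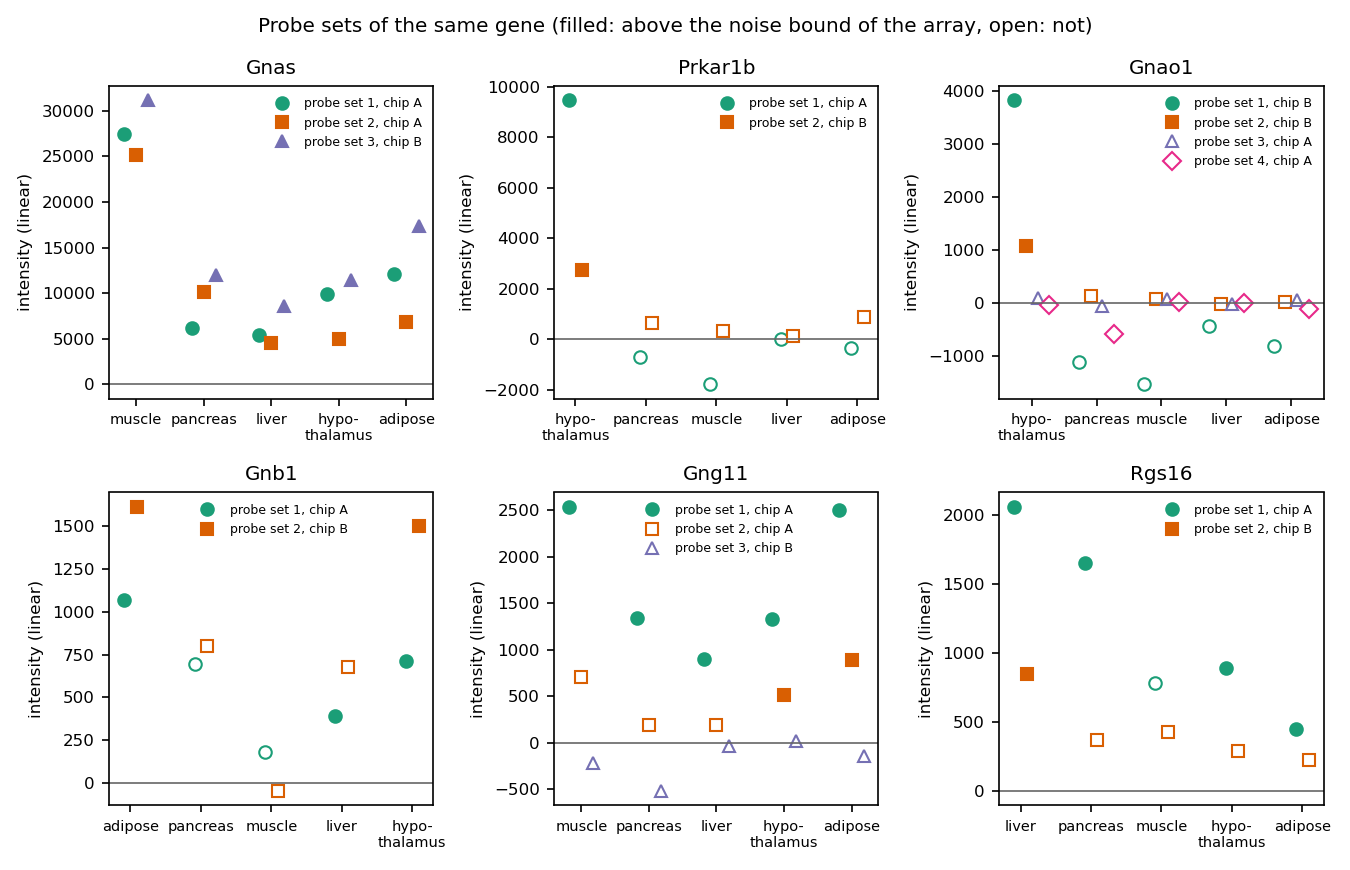
Linear intensity of every probe set of 6 member genes, with the gene's highest tissue at the left of each panel; colour and marker give the probe set, filled markers lie above the noise bound of their array and open markers do not. The probe sets of Gnas, Prkar1b, Gnb1 and Rgs16 that lie above noise share their highest tissue, while those of Gng11 put muscle or adipose first.

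Genes of the same pathway outside the rule were read from 3 lists. Of 51 receptors, 24 had a probe set, 7 were measured anywhere and 2 were called, both for pancreas, where 2.66% of all probe sets were. Cckar, the cholecystokinin receptor of acinar cells, read 5039.7 in pancreas, against at most 83.5 in the other tissues, at least 4.73-fold. Chrm1, a muscarinic receptor, read 6841 in pancreas, against 1702 in muscle and 1052.5 in adipose. Both act mainly through Gq and calcium. Of 32 listed effectors and inhibitors, 11 were on the arrays and 6 measured. Calm2, a calmodulin gene, was called for hypothalamus at 13843, against 4784.5 in adipose. Atf4, a stress-response factor of the wider CREB family, was called for pancreas at 11368, against 3157 in hypothalamus. Of all probe sets, 1.35% were called for hypothalamus and 2.66% for pancreas. Of 17 target genes, 11 were on the arrays and 8 measured. For muscle 3 were called and for adipose 1, where 1.68% and 0.812% of all probe sets were. Those of muscle were the glycogen enzymes Pygm (72742, against at most 438) and Phka1 (5315, against at most 538), and Nr4a1, an early response gene (9316, against at most 1120). Lipe, the hormone-sensitive lipase that protein kinase A phosphorylates, read 17410.2 in adipose, against at most 709.5 elsewhere. Lipe is also 1 of the 5 adipocyte markers, and no member was called for adipose.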

How the data were processed

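Per the labels, biotin-labelled cRNA from 10 µg of Trizol-extracted total RNA was hybridised by the maker's manual. The deposited intensity values are whole numbers on a linear scale, and values below 0 (17.1% to 38.8% of an array) show a subtraction by the authors. The mean after trimming 2% at each end is 500.8 to 501.5 on every array, so the authors had scaled them. For software and detection calls, nothing is stated in the labels or headers.

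Before any comparison, 61 controls per chip were dropped and arrays of a chip were brought to a common trimmed mean. Probe sets were named from the platform annotation, and no member symbol changed by gene identifier in the mouse table of GRCm38.p6, which was used for names. For log2 shifts, low values were raised to a floor of 174.8 (chip A) or 122.5 (chip B), the median of the array medians. With 1 array per tissue and chip there is no test. The share of all probe sets called, with or without a single gene symbol, is given instead. The calling rule was also run on simulated arrays in which some probe sets were raised well above every noise bound. The 2-fold rule was bound to find these, so that run checks the code and not the calls made here. Alternatives were other scalings, bounds, folds and floors, a 4-fold rule with the floor, fewer probe sets and fewer arrays.

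Full values are given, by rule, for genes called for a tissue or pair, measured in all 5 tissues, or among the 2 brightest of a role. Gna11, Gna13, Gnai1, Gnai2, Gnai3, Gnb1, Rgs5, Rgs11 and Rgs14 were added after their values were seen. The members and lists were chosen with earlier results of these data known. Python 3.11.15, pandas 2.3.3, numpy 2.4.6, scipy 1.17.1 and matplotlib 3.10.9 were used.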

Additional observations from a re-analysis of the deposited data

How the results depend on the processing

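The 4 calls of members for hypothalamus (1.35% of all probe sets called) became 9 with quantile normalization (2.64%), 10 with the noise bound at the 5th percentile (2.86%), 10 without the pancreas and muscle arrays (4.69%), 2 at 4-fold (0.36%) and 1 without probe sets of relaxed design (0.796%), that is, without IDs marked f, r, i, g or s. The 3 calls for muscle became 8 without the pancreas arrays (4.79%), of which those of Akap9 and 1 probe set of Rgs5 lie under the muscle array's own bound. They became 5 with the 5th percentile (2.83%), 1 at 4-fold (0.751%), 1 without probe sets of family design (1.4%) and 0 without those of relaxed design (0.796%). Pancreas had 0 calls, but 1 with quantile normalization (3.09%), 2 with the 5th percentile (5.32%) and 3 without the muscle arrays (6.75%). Of the calls without the muscle arrays, that of Pde6g lies under the pancreas array's own bound. Adipose had 0, but 1 with quantile normalization (1.52%), 1 with the 5th percentile (1.46%) and 2 without the pancreas and muscle arrays (3.36%). Liver had 0, but 1 in that last comparison (3.61%). The fold of Gnas in muscle, 2.26, was 1.92 with scaling by the 75th percentile, 1.10 with quantile normalization and 1.79 by the chip B probe set, and that of Prkar1b in hypothalamus was at least 1.05 by the chip B probe set. The folds of Gnb2, Gng3, Prkar1a and Pde4dip stayed above 2 under every setting in which they could be computed. All 4 probe sets are of relaxed design, so none of these folds exists without that design. The call left there was that of Prkar1b on chip A, at least 8.12-fold. Scaling by the 75th percentile gave 5 calls for hypothalamus (1.85%) and 2 for muscle (1.4%). Members above noise in hypothalamus, 32, were 21 with quantile normalization, 8 without relaxed design and 16 with the highest bound of the chip on every array. In liver, 15 became 2 without relaxed design, 29 with the 5th percentile and 6 with the highest bound. In muscle, 11 became 4 without relaxed design and 25 with the 5th percentile. In pancreas, 10 became 2 without relaxed design and 16 with the 5th percentile. In adipose, 20 became 2 without relaxed design, 40 with the 5th percentile and 7 with the highest bound. The share of all probe sets above noise was not computed under these settings. Whether members lie above or below that share there is therefore not known. Of the 76 member probe sets, 57 are of relaxed design, so that setting leaves few to call. The median log2 shift of members in liver was -0.41 to 0.00 over the alternatives, with 0.00 when the floor was the 75th percentile. The folds of single genes by setting, the comparison without pancreas and muscle, the removal of other tissues, the highest common bound and the removal of family design alone were chosen after seeing the data. No paired analysis was possible because there is 1 array per tissue and chip.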
